A study of Mus musculus with 9 samples.

Results

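Astrocyte identity and glutamate handling in mouse brain tumor stem cells (BTSC) were followed through 10 genes, chosen by name from the 21899 genes of the normalized expression table. The set holds Glul, Slc1a2 and Slc1a3 for glutamate uptake and conversion, Gfap, S100b and Aldh1l1 for astrocyte identity, Gja1, Aqp4 and Slc4a4 for coupling, water and bicarbonate transport, and the secreted chaperone Clu. Poly(A) RNA of cultured BTSC was sequenced after Cas9 targeting of Gpd1, which encodes the cytosolic glycerol-3-phosphate dehydrogenase. The groups were BTSC with Gpd1 knocked out (KO) by sgRNA1 (3 libraries), BTSC with Gpd1 knocked out by sgRNA2 (3 libraries) and control BTSC (3 libraries), and the KO group as a whole therefore had 6 libraries. Per the labels, puromycin-resistant KO cells were plated sparsely so that each colony came from a single cell, and the loss of GPD1 was checked by Western blot and by sequencing DNA from the colonies. The labels do not give the strain, age or tumor model of origin, how the control cells were handled, or whether libraries of a group came from separate cultures, so the p-values measure the spread between these libraries. If the controls were not grown from single cells, differences between colonies cannot be told apart from the knockout.

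Astrocytes clear glutamate from the extracellular space with the sodium-coupled transporters GLT-1 (Slc1a2) and GLAST (Slc1a3), and glutamine synthetase (Glul) converts it to glutamine, which is handed back to neurons. GLAST is already expressed in radial glia and neural stem cells, whereas GLT-1 and S100B come up as astrocytes mature. Gfap is carried by both adult neural stem cells and astrocytes, so its level alone does not separate these states.

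The deposited values are whole numbers, taken from their pattern and from the tools named as read counts scaled by 1 factor per library and rounded, and are called normalized read counts here. Their totals per library lay between 39781901 and 42975283. Within each group, values are given in the order of replicates 1, 2 and 3. Gpd1, the targeted gene, had normalized read counts of 3299, 1347 and 21351 in sgRNA1 KO libraries, 10812, 10812 and 6945 in sgRNA2 KO libraries, and 25106, 26566 and 25836 in controls. All KO libraries lay below the controls, but sgRNA1 KO replicate 3 kept 82.6% of the control mean and sgRNA2 KO replicates 1 and 2 kept 41.8% each. In limma on log2(value + 1), Gpd1 had a log2 fold change of -1.99 in KO against control libraries (SE 0.72, adjusted p = 0.0516), and 5 of 18 alternative settings called it lower (-2.60 to -1.53 over all 18, adjusted p = 0.00369 to 0.137). The mRNA level does not show whether the coding sequence was cut. Replicate 3 of sgRNA1 KO and replicate 1 of sgRNA2 KO had the smallest mean log2 ratios of the 10 genes to controls, 0.05 and 0.37, as given further on. Replicate 2 of sgRNA2 KO had the same Gpd1 count as replicate 1 but a mean log2 ratio of 0.89, and a link with the Gpd1 level was not tested. The stem cell markers Sox2 (means 15180 in KO and 7704 in control libraries) and Nes (17410 and 42540) were abundant in both groups, whereas Prom1 was at 3 to 31 in KO and 7 to 15 in control libraries.

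The sequences of 3 promoters are shown because Glul and S100b were higher in every KO library than in any control, whereas Gja1 had KO libraries on both sides of the controls. Each covers the 250 bases before the RefSeq transcription start (build GRCm38.p6), and 8 of the 10 genes had such an entry. Capitals mark matches, on either strand, to the NFI motif TTGGC or to the RBPJ core TGGGAA, motifs of 2 factor families that act on astrocyte genes and in Notch signaling. The positions, all on the plus strand, were chr1:153899679-153899928 for Glul, chr10:76253586-76253835 for S100b and chr10:56377050-56377299 for Gja1.
Glul: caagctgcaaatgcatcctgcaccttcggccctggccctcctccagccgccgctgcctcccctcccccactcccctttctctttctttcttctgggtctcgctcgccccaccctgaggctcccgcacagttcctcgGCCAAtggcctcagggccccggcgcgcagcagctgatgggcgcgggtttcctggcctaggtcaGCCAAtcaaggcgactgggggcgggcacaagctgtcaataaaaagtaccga
S100b: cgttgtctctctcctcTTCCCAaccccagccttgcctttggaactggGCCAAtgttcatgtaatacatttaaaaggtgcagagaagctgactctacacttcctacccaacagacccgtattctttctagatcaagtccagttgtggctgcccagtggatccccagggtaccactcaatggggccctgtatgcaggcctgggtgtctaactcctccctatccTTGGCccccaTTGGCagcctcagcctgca
Gja1: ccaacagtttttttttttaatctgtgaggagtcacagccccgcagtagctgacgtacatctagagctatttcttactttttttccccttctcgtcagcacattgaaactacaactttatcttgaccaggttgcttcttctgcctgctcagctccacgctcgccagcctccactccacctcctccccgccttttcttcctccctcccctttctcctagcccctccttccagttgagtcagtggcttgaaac
Glul had the NFI motif 110 and 47 bases before the start. S100b had 3 NFI matches, at 199, 25 and 15 bases, and an RBPJ core at 229 bases. Gja1 had no match to these motifs, to the STAT motif TTCNNNGAA or to the SOX motif ACAAAG in this window. Short motifs are common: 41.5% of 32851 promoters of this length held the NFI motif, 21.6% the RBPJ core, 16.5% the SOX motif and 7.02% the STAT motif. The STAT motif was found in 1 of the 8 genes, Slc1a3, whose window holds it 88 bases before the start. Windows of Slc1a2 and Slc4a4 also held the NFI motif, and those of Gfap, Aldh1l1 and Slc4a4 the RBPJ core. Slc4a4 had NFI matches 174, 130 and 86 bases before its starts, and like Gja1 it had KO libraries on both sides of the controls. Whether the motifs go with the changes was not tested. Several of the NFI matches are also part of the letters CCAAT, and a match describes the letters and not a bound site.

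Across the 10 genes, Glul, Slc1a2 and S100b rose in KO against control libraries, none fell, and 7 did not pass the test (limma on log2(value + 1), Benjamini-Hochberg adjusted p under 0.05 over 15827 genes with a mean of at least 10, which all 10 genes passed). Of all genes tested, 39.3% were called in this comparison, 19.1% higher and 20.2% lower, so 3 of 10 is not far from the background. Without sgRNA1 KO replicate 3 and sgRNA2 KO replicate 1, the log2 fold changes were 2.53 for Glul, 2.80 for Slc1a2 and 4.68 for S100b. Of the tested genes, 0.171% had a higher log2 fold change than S100b, 1.35% a higher one than Slc1a2 and 1.88% a higher one than Glul. For Aqp4, which did not pass the test, this share was 1.85%, and for the remaining genes it ran from 29.9% to 93.6%. The genes were chosen with earlier results of these data known, so these places are a description and no support. The median log2 fold change was 0.35 over the 10 genes and -0.01 over all genes tested. RNA was taken from whole cultures, so more cells of one kind and more RNA per cell cannot be told apart.

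Glul, the glutamine synthetase gene (chr1:153899944-153909723, plus strand, GENCODE M21), had normalized read counts of 54399, 62846 and 40398 in sgRNA1 KO libraries, 31912, 50783 and 89027 in sgRNA2 KO libraries, and 11475, 10438 and 10704 in controls. The lowest KO library lay well above the highest control, and the groups did not overlap. Glul averaged 54894 ± 19919 in KO (SD, n = 6) and 10872 ± 539 in control libraries (SD, n = 3), a 5.05-fold higher mean. Its log2 fold change was 2.26 (SE 0.27, limma adjusted p = 0.000735), 2.25 for sgRNA1 KO against control (SE 0.33, limma adjusted p = 0.00428) and 2.27 for sgRNA2 KO against control (SE 0.33, limma adjusted p = 0.00438). Both comparisons share the control libraries, and the difference of sgRNA1 KO from sgRNA2 KO was -0.02 (SE 0.33, limma adjusted p = 0.986). Exons of Glul overlap Teddm2 on the other strand over 116 bases and Mir8114 over 93 bases, a small part of its 3323 exonic bases.

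Slc1a2, the GLT-1 transporter gene (chr2:102658659-102790784, plus strand), had normalized read counts of 23291, 25627 and 9666 in sgRNA1 KO libraries, 10738, 13620 and 14636 in sgRNA2 KO libraries, and 3821, 2122 and 2352 in controls. Every KO library exceeded every control, with sgRNA1 KO replicates 1 and 2 highest and sgRNA1 KO replicate 3 lowest. Slc1a2 averaged 16263 ± 6645 in KO (SD, n = 6) and 2765 ± 922 in control libraries (SD, n = 3). The log2 fold change was 2.51 (SE 0.33, limma adjusted p = 0.00108), with 2.75 for sgRNA1 KO (SE 0.37, adjusted p = 0.00362) and 2.27 for sgRNA2 KO (SE 0.37, adjusted p = 0.00641), each against control. Counting on strand is not given in the sources used here, and Slc1a2 shares 189 exonic bases with the antisense gene Gm13872, so reads of that stretch cannot be assigned to one of them.

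Slc1a3, the GLAST transporter gene (chr15:8634124-8710764, minus strand), behaved differently from Slc1a2. It had normalized read counts of 46385, 50061 and 36959 in sgRNA1 KO libraries, 30433, 33991 and 45126 in sgRNA2 KO libraries, and 41096, 43373 and 41556 in controls. Of the KO libraries, 3 lay above and 3 below all controls. The log2 fold change of -0.08 did not pass the test (SE 0.16, limma adjusted p = 0.731), and it was the least variable of the 10 genes among KO libraries, spanning 1.64-fold. The share of Slc1a2 in the summed normalized read count per kb of both transporters was 24.6%, 24.97% and 14.5% in sgRNA1 KO libraries, 18.7%, 20.7% and 17.4% in sgRNA2 KO libraries, and 5.70%, 3.08% and 3.55% in controls. This share averaged 20.1% ± 4.12 in KO (SD, n = 6) and 4.11% ± 1.40 in control libraries (SD, n = 3), without overlap. Per kb, Slc1a3 was the more abundant of the pair in every library.

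**Figure D1:**
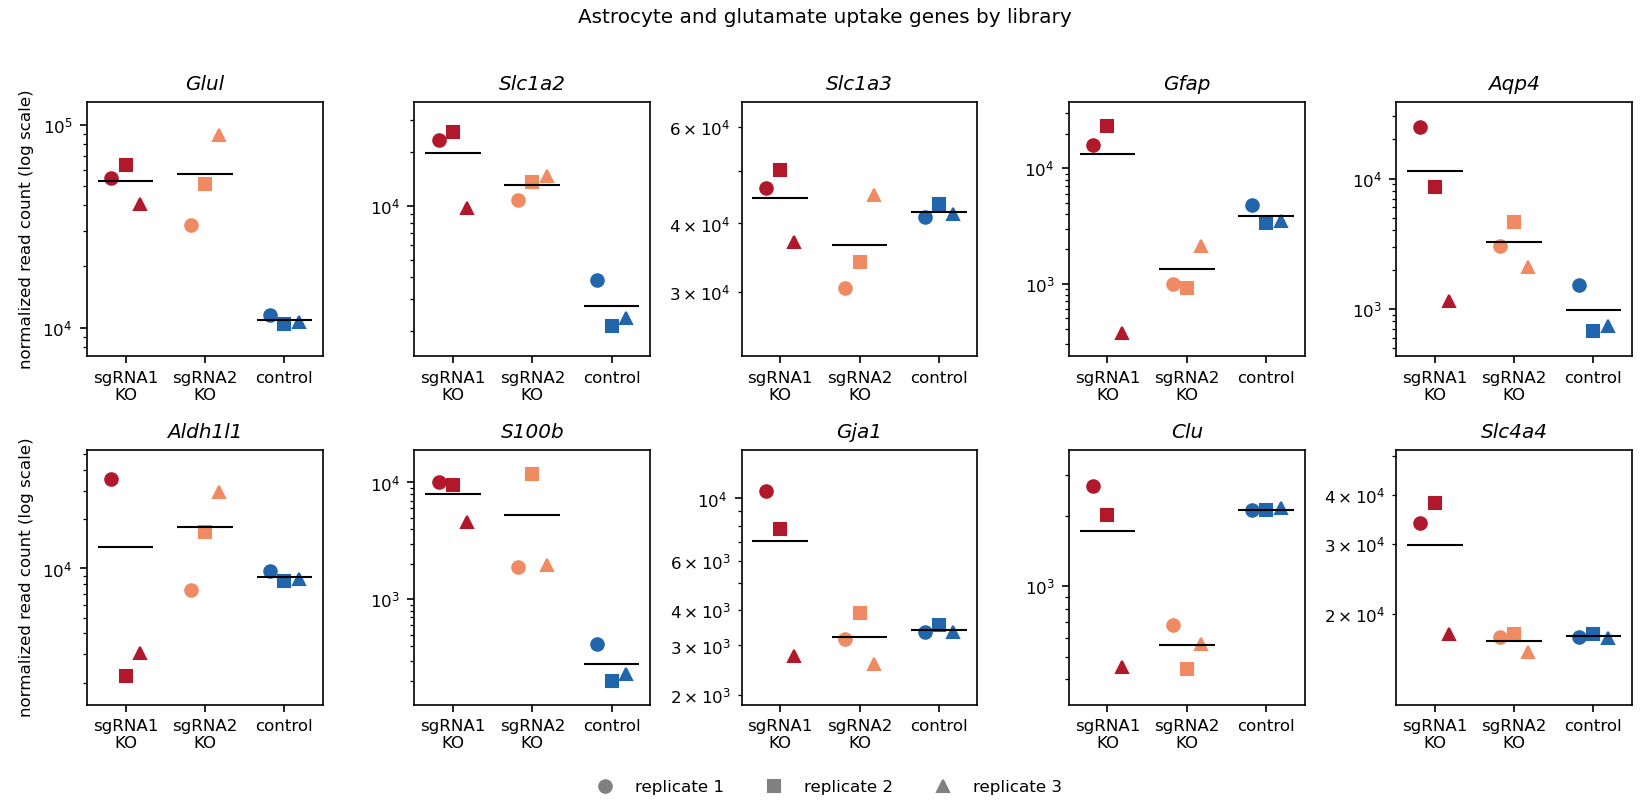
Normalized read count of each gene (log axis, scaled per panel) in sgRNA1 KO, sgRNA2 KO and control libraries, with 1 point per library, shapes for replicates and bars for group means. Glul, Slc1a2 and S100b have all 6 KO points above the 3 controls, while Gfap and Aldh1l1 have KO points far above and far below them.

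S100b, a calcium-binding protein gene of mature astrocytes (chr10:76253853-76261159, plus strand), changed most of the 10 genes. It had normalized read counts of 10047, 9477 and 4578 in sgRNA1 KO libraries, 1877, 11812 and 1967 in sgRNA2 KO libraries, and 412, 201 and 230 in controls. The groups did not overlap, and sgRNA2 KO replicates 1 and 3 were the lowest of the KO libraries. S100b averaged 6626 ± 4363 in KO (SD, n = 6) and 281 ± 114 in control libraries (SD, n = 3), a 23.6-fold higher mean. Its log2 fold change was 4.27 (SE 0.63, limma adjusted p = 0.00169), with 4.82 for sgRNA1 KO (SE 0.67, adjusted p = 0.00388) and 3.72 for sgRNA2 KO (SE 0.67, adjusted p = 0.00938), each against control. Without control replicate 2, the sgRNA2 KO value had an adjusted p of 0.0505. S100b is also expressed in cells of the oligodendrocyte lineage, whose markers are given further on.

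Gfap, the intermediate filament gene of astrocytes (chr11:102887336-102900912, minus strand), split the KO libraries. Its normalized read counts were 16039, 23509 and 373 in sgRNA1 KO libraries, 999, 916 and 2118 in sgRNA2 KO libraries, and 4827, 3348 and 3480 in controls. Replicates 1 and 2 of sgRNA1 KO exceeded every control, whereas sgRNA1 KO replicate 3 and all sgRNA2 KO libraries lay below every control. The KO libraries spanned 63.0-fold, and 0.234% of the tested genes had a larger log2 SD among them. The log2 fold change was -0.59 in KO against control (SE 1.22, limma adjusted p = 0.721), although the linear mean was higher in KO (7326) than in control libraries (3885). The guide comparisons gave 0.44 for sgRNA1 KO (SE 1.31, adjusted p = 0.806) and -1.62 for sgRNA2 KO (SE 1.31, adjusted p = 0.382). The sgRNA1 KO value ran from -0.65 to 2.34 when a library was left out, the highest being that without sgRNA1 KO replicate 3, the low library of its group, so it describes replicates 1 and 2 and tests nothing further.

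Aldh1l1, which encodes a folate enzyme used as a pan-astrocyte marker (chr6:90486427-90600203, plus strand), was split along other lines. Its normalized read counts were 35433, 2191 and 3027 in sgRNA1 KO libraries, 7339, 16696 and 29497 in sgRNA2 KO libraries, and 9644, 8383 and 8568 in controls. Of the KO libraries, 3 lay above and 3 below every control, and here sgRNA1 KO replicates 1 and 2 were on opposite sides. Aldh1l1 had a log2 fold change of 0.14 (SE 0.85, limma adjusted p = 0.908), with a 16.2-fold span among KO libraries. Exons of Aldh1l1 share 499 bases with the antisense gene Gm15756 and 105 bases with Gm45901 on its own strand.

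Aqp4, the water channel gene of astrocyte endfeet, had normalized read counts of 24776, 8628 and 1141 in sgRNA1 KO libraries, 3028, 4624 and 2083 in sgRNA2 KO libraries, and 1517, 670 and 742 in controls. Of the KO libraries, 5 exceeded every control and sgRNA1 KO replicate 3 lay within the control range. The log2 fold change of 2.27 missed the threshold (SE 0.82, limma adjusted p = 0.0515), while 7 of 18 alternative settings called Aqp4 higher (1.77 to 2.89 over all 18, adjusted p = 0.0107 to 0.163). Against control, sgRNA1 KO gave 2.78 (SE 0.94, adjusted p = 0.0460) and sgRNA2 KO 1.76 (SE 0.94, adjusted p = 0.194), which 3 of 19 alternative settings called (adjusted p = 0.0173 to 0.385). The sgRNA1 KO call was lost in 9 of 19 alternative settings, 8 of which left out a library other than sgRNA1 KO replicate 3, with adjusted p values up to 0.142.

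Gja1, the connexin 43 gene of astrocyte gap junctions (chr10:56377330-56402513, plus strand), had normalized read counts of 10627, 7800 and 2751 in sgRNA1 KO libraries, 3163, 3901 and 2581 in sgRNA2 KO libraries, and 3349, 3546 and 3351 in controls. The high values were those of sgRNA1 KO replicates 1 and 2, and 3 KO libraries lay above and 3 below every control. Gja1 had a log2 fold change of 0.37 (SE 0.43, limma adjusted p = 0.522) in KO and 0.84 (SE 0.42, adjusted p = 0.142) in sgRNA1 KO, each against control. Slc4a4, the sodium bicarbonate cotransporter gene (chr5:88886818-89239653, plus strand), had 33956, 38049 and 17822 in sgRNA1 KO libraries, 17535, 17860 and 16119 in sgRNA2 KO libraries, and 17555, 17842 and 17487 in controls. Apart from sgRNA1 KO replicates 1 and 2, its KO libraries were close to the controls, and the groups overlapped. Slc4a4 had a log2 fold change of 0.33 in KO (SE 0.29, limma adjusted p = 0.383) and 0.69 in sgRNA1 KO (SE 0.25, adjusted p = 0.0550), each against control. The sgRNA1 KO values thus rest on replicates 1 and 2 of that group.

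Clu, which encodes the extracellular chaperone clusterin (chr14:65968483-65981547, plus strand), had normalized read counts of 2689, 2019 and 449 in sgRNA1 KO libraries, 682, 443 and 564 in sgRNA2 KO libraries, and 2126, 2115 and 2157 in controls. The controls lay very close together, sgRNA1 KO replicates 1 and 2 were near them, and the other 4 KO libraries were lower. The log2 fold change was -1.30 in KO against control (SE 0.58, limma adjusted p = 0.0981), and 2 of 18 alternative settings called it lower (adjusted p = 0.0109 to 0.226). Clu fell in sgRNA2 KO against control libraries, at -1.94 (SE 0.56, adjusted p = 0.0384), while sgRNA1 KO gave -0.66 (SE 0.56, adjusted p = 0.367). The sgRNA2 KO call was lost when any 1 of the sgRNA2 KO or control libraries was left out, with adjusted p values of 0.0525, 0.110 and 0.0797 without sgRNA2 KO replicates 1, 2 and 3 and 0.0955, 0.117 and 0.114 without control replicates 1, 2 and 3.

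**Figure D2:**
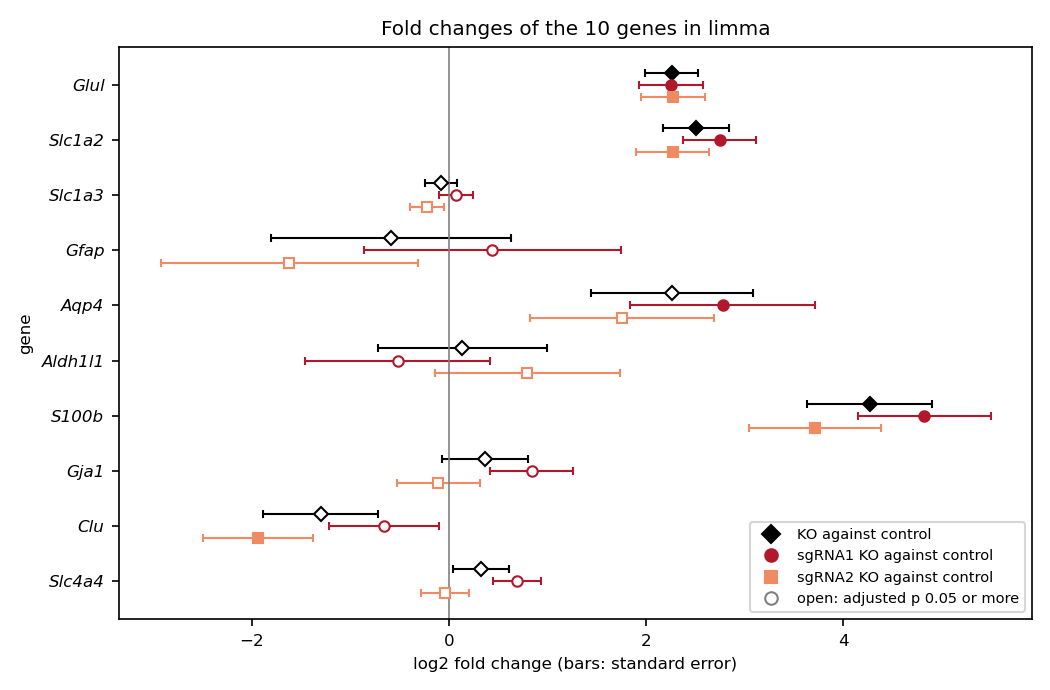
log2 fold change of each gene for KO, sgRNA1 KO and sgRNA2 KO, each against control, with bars for the standard error and filled markers for adjusted p under 0.05. Glul sits between 2.25 and 2.27 in all comparisons, whereas Gfap runs from -1.62 to 0.44.

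By guide, 4 of the 10 genes rose in sgRNA1 KO against control libraries (Glul, Slc1a2, S100b and Aqp4) and none fell, beside 36.0% of all genes called (17.1% higher and 18.9% lower). In sgRNA2 KO against control, 3 rose (Glul, Slc1a2 and S100b) and Clu fell, beside 22.1% of all genes called (11.4% higher and 10.7% lower). The direct comparison of sgRNA1 KO with sgRNA2 KO called 0 of 10 genes and 0.0% of all genes in limma. Before adjustment, 474 genes had a limma p under 0.05, and 2 of the 10 genes, Clu and Slc4a4, were among them. Leaving out each library in turn gave 0 to 173 called genes and 0 to 4 of the 10 genes. Both upper ends came without sgRNA1 KO replicate 3, and since that library was low for these genes, they describe the remaining libraries and do not show a difference between the guides.

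The 10 genes did not move as 1 block. In 6 of them (Slc1a3, Gfap, Aldh1l1, Gja1, Clu and Slc4a4) at least 1 KO library lay above and at least 1 below every control, as did 34.7% of all genes tested. In 3 genes every KO library lay above every control, as in 21.1% of all genes, and in none did every KO library lie below, as in 23.8%, which makes 44.8% of all genes without overlap. Library by library, the number of the 10 genes above every control was 10, 8 and 3 in the sgRNA1 KO group and 4, 7 and 6 in the sgRNA2 KO group. Of all genes tested, 45.5%, 44.7% and 41.0% lay above every control in the sgRNA1 KO libraries and 40.8%, 44.8% and 44.1% in the sgRNA2 KO libraries. The number below every control was 0, 2 and 5 in the sgRNA1 KO group and 5, 3 and 4 in the sgRNA2 KO group, and the share of all genes there was 46.0%, 46.3% and 44.6% in the sgRNA1 KO libraries and 44.0%, 45.9% and 44.7% in the sgRNA2 KO libraries. Replicates 1 and 2 of sgRNA1 KO thus had more of the 10 genes above every control than the share of all genes, and the other KO libraries had counts nearer to it. The mean log2 ratio of the 10 genes to the control mean was 2.26, 1.73 and 0.05 in the sgRNA1 KO group and 0.37, 0.89 and 0.81 in the sgRNA2 KO group. In sgRNA1 KO replicate 1 the whole set was therefore above the controls, whereas in sgRNA1 KO replicate 3, Glul, Slc1a2 and S100b were above them and 5 genes were below.

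The median log2 SD of the 10 genes was 0.994 among KO libraries, against 0.364 over all genes tested, and 0.0898 among control libraries, against 0.0859 over all genes. The controls thus lay much closer together than the KO libraries, whereas the main fits used 1 shared spread per gene for all groups. Of the 10 genes, 9 exceeded the KO median of all genes, and Slc1a3 did not. Across the 6 KO libraries, the log2 values of Slc1a2 and Gfap had a Pearson r of 0.979, Gja1 and Aqp4 0.952, Gja1 and Slc4a4 0.947, and Clu and Slc4a4 0.945. Aldh1l1 stood outside this pattern, with r between -0.181 and 0.381 to the other genes. Glul also followed this pattern only loosely. It was nearest to Slc1a3 (r = 0.776), with r between 0.0887 and 0.544 to the other genes. Among these, r was 0.138 to Gja1, 0.168 to Aqp4, 0.185 to Slc4a4 and 0.199 to Clu. These values describe 6 points and carry no test.

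**Figure D3:**
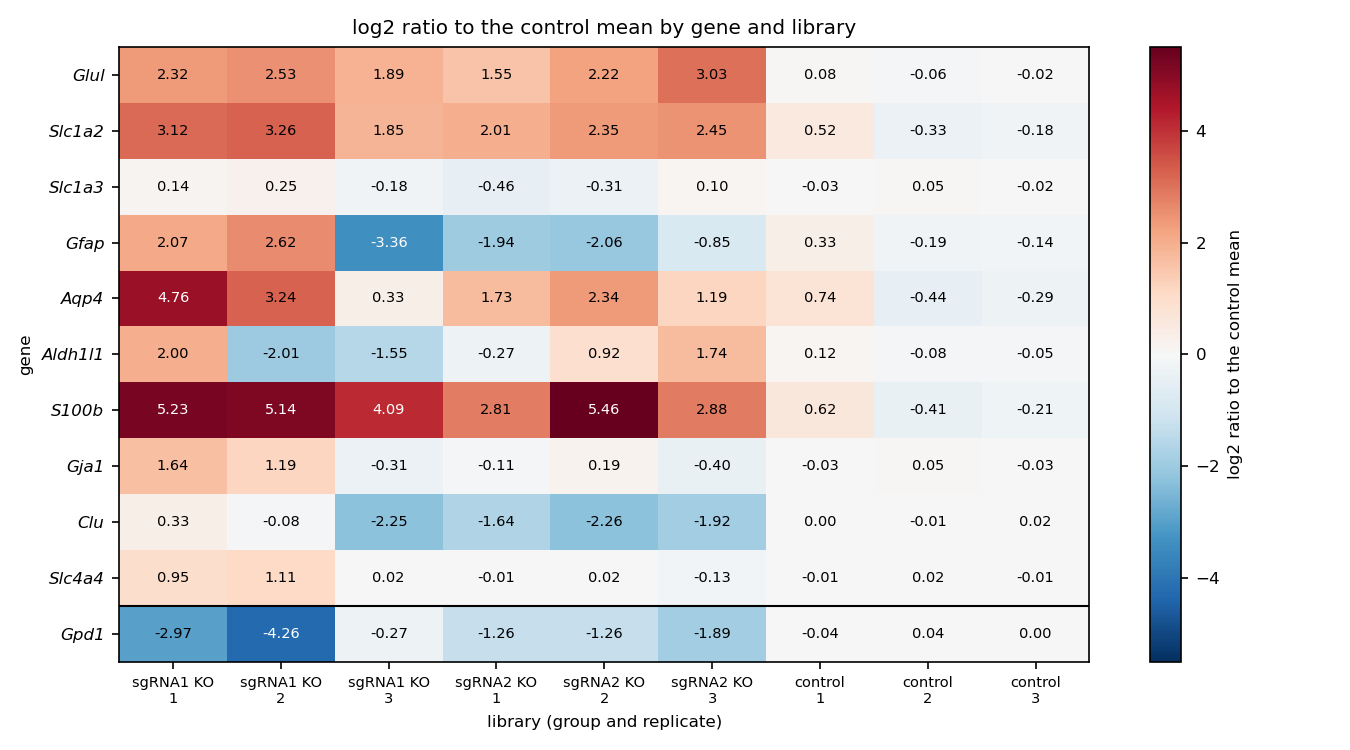
log2 ratio of each gene to the control mean in every library, with Gpd1 in the bottom row and red for higher and blue for lower than controls. The rows of Glul, Slc1a2 and S100b are red in all 6 KO columns, and the sgRNA1 KO replicate 1 column is red for all 10 genes.

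To compare levels between genes, normalized read counts were divided by the merged exon length. Per kb, Glul was highest in KO libraries at 16519 ± 5994, followed by Slc1a3 at 4743, S100b at 4465 ± 2940, Aldh1l1 at 3476, Slc4a4 at 2178, Gfap at 1737, Slc1a2 at 1238, Aqp4 at 1184, Gja1 at 501 and Clu at 332 (means, n = 6). Below Glul, the ranges of all neighbours in this order overlapped. In control libraries the order per kb was Slc1a3 at 4921, Glul at 3272, Aldh1l1 at 1963, Slc4a4 at 1630, Gfap at 921, Clu at 621, Gja1 at 333, Slc1a2 at 211, S100b at 189 and Aqp4 at 157 (means, n = 3). Slc1a2, S100b and Aqp4 overlapped there, and the other neighbours did not.

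Of the other astrocyte markers, 38 of 40 were tested, and 17 rose and 2 fell in KO against control, beside 19.1% of all genes higher and 20.2% lower, with a median log2 fold change of 0.54, against -0.01 over all genes. The count of risen genes was 11 without control replicate 2 or 3, and Ndrg2 was among those lost, with adjusted p values up to 0.0601. The count of fallen genes was 4 without sgRNA1 KO replicate 2 and 5 with variance weights. Ndrg2, a stress-responsive gene of astrocytes, had 29667, 21848 and 2999 in sgRNA1 KO, 1874, 12092 and 4912 in sgRNA2 KO, and 1171, 501 and 678 in control libraries (log2 fold change 3.40, SE 0.84, limma adjusted p = 0.0120). Apoe, the lipid carrier secreted by astrocytes, had a log2 fold change of 3.38 (SE 0.66, adjusted p = 0.00485). The 2 that fell were the chemokine gene Cxcl14 at -2.58 (SE 0.17, adjusted p = 7.98e-05) and the thyroid hormone deiodinase gene Dio2 at -1.44 (SE 0.21, adjusted p = 0.00164).

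In a list of glutamate and glutamine metabolism and transport, 8 of 28 tested genes rose and 3 fell, with a median log2 fold change of 0.06. With 39.3% of all genes called, this share is the background's, and 5 fell without sgRNA1 KO replicate 3 or sgRNA2 KO replicate 3 and 7 with variance weights or without both sgRNA1 KO replicate 3 and sgRNA2 KO replicate 1. Abat, the GABA transaminase gene, had normalized read counts of 27005, 26979 and 8276 in sgRNA1 KO, 8240, 18985 and 12633 in sgRNA2 KO, and 3187, 2474 and 2591 in control libraries. Every KO library was above the controls (log2 fold change 2.47, SE 0.41, limma adjusted p = 0.00255). Pcx, which encodes the mitochondrial pyruvate carboxylase that refills the citric acid cycle in astrocytes, rose by 1.77 (SE 0.30, adjusted p = 0.00284). Slc1a5, the neutral amino acid transporter that takes up glutamine, fell by 2.14 (SE 0.49, adjusted p = 0.00876), and the mitochondrial glutamate carrier gene Slc25a22 fell by 0.86 (SE 0.28, adjusted p = 0.0352). The Slc25a22 call was lost without sgRNA1 KO replicate 1 or any 1 of the controls, with adjusted p values up to 0.114. Among the others that rose, picked here after their values were seen, Slc38a3, a system N glutamine transporter gene, had a log2 fold change of 1.20 (SE 0.13, adjusted p = 0.000476) and the glutamate dehydrogenase gene Glud1 1.32 (SE 0.30, adjusted p = 0.00929).

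Genes of coupling, ion and water handling beyond the set gave 5 risen and 0 fallen of 19 tested, with a median of 0.37, beside 19.1% of all genes higher and 20.2% lower. The share of risen genes is thus not far from the background, and 1 gene fell without sgRNA1 KO replicate 3 or any 1 of the sgRNA2 KO libraries. Atp1b2, a sodium pump beta subunit gene, had 20925, 21215 and 13954 in sgRNA1 KO, 12357, 13133 and 38134 in sgRNA2 KO, and 10006, 6145 and 6839 in control libraries. Every KO library was above the controls, and Atp1b2 rose by 1.29 (SE 0.34, limma adjusted p = 0.0155). The count of risen genes was 2, 1 and 2 without control replicates 1, 2 and 3, and 8 without sgRNA1 KO replicate 3, and the Atp1b2 call was lost without control replicate 2 or 3 (adjusted p up to 0.0760). Of 18 glutamate receptor genes tested, 4 rose, near the 19.1% of all genes, among them the AMPA receptor subunit gene Gria4 at 3.34 (SE 0.33, adjusted p = 0.000419) and the metabotropic receptor gene Grm3 at 1.67 (SE 0.51, adjusted p = 0.0271), and the NMDA receptor subunit gene Grin2a fell by 2.18 (SE 0.75, adjusted p = 0.0420). The Grin2a call was lost without any 1 of 7 libraries, all but sgRNA1 KO replicate 3 and sgRNA2 KO replicate 1 (adjusted p up to 0.122), and the Grm3 call without sgRNA2 KO replicate 2 or any 1 of the controls (adjusted p up to 0.100). Without sgRNA2 KO replicate 3, 7 receptor genes rose.

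Of 23 transcription factors of astrocyte fate, 3 rose and 2 fell, beside 39.3% of all genes called, and 5 rose without sgRNA2 KO replicate 3. The list was not sorted by whether a factor drives or opposes this fate, so its rises and falls do not give a direction. The Notch target Hes5 rose by 2.33 (SE 0.33, limma adjusted p = 0.00138), with 5275, 4532 and 2309 in sgRNA1 KO, 3491, 3690 and 3373 in sgRNA2 KO, and 1289, 450 and 657 in control libraries. Hey1, another Notch target, rose by 0.94 (SE 0.16, adjusted p = 0.00277), while Lhx2 fell by 0.98 (SE 0.15, adjusted p = 0.00173) and Id3 fell by 0.74 (SE 0.25, adjusted p = 0.0413). The Id3 call was lost without sgRNA1 KO replicate 1 or 2 or any 1 of the controls, with adjusted p values up to 0.112. Nfia, Sox9 and Stat3, factors known to drive astrocyte genes and picked here after their values were seen, gave 0.25 (adjusted p = 0.398), 0.28 (adjusted p = 0.275) and 0.27 (adjusted p = 0.267).

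Of 35 genes induced in reactive astrocytes, 24 were tested, and 16 fell and 1 rose in KO against control, beside 20.2% of all genes lower and 19.1% higher, with a median log2 fold change of -1.50. S100a10 had 18, 50 and 0 in sgRNA1 KO, 0, 41 and 87 in sgRNA2 KO, and 531, 584 and 519 in control libraries (log2 fold change -5.46, SE 1.47, limma adjusted p = 0.0169). Clcf1, a ligand gene of the CNTF receptor, had a log2 fold change of -4.64 (SE 0.33, adjusted p = 0.000121), and the 1 that rose was the major histocompatibility gene H2-T23 at 2.25 (SE 0.61, adjusted p = 0.0179). The count of fallen genes was 9, 7 and 8 without control replicates 1, 2 and 3, and none then rose. The calls of S100a10 and H2-T23 were lost in each of these settings, with adjusted p values up to 0.0648 and 0.0791. Several of these genes are also expressed by mesenchymal and wound-response states of other cells, so the list's name does not fix a cell type.

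**Figure D4:**
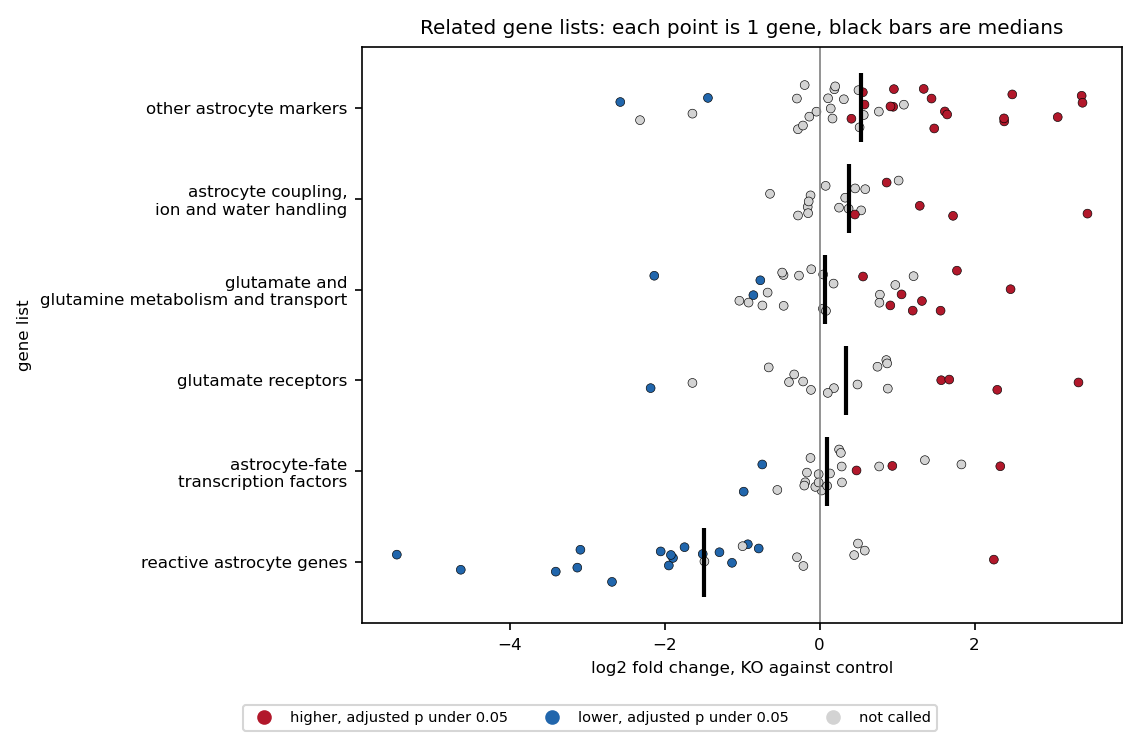
log2 fold change in KO against control of each tested gene in 6 lists, with red for higher and blue for lower at adjusted p under 0.05, grey for neither and black bars for list medians. The other astrocyte markers have a median of 0.54 and the reactive astrocyte genes one of -1.50.

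Markers of other states moved beside these genes, and their part in the results was not tested. The counts that follow stand beside 19.1% of all genes higher and 20.2% lower. Of 20 proliferation genes, 13 fell and 0 rose in KO against control, and their summed normalized read count was 43919, 34812 and 168782 in sgRNA1 KO, 161972, 71488 and 119345 in sgRNA2 KO, and 244346, 259885 and 250657 in control libraries. The count of 13 was 3, 2 and 3 without control replicates 1, 2 and 3, 7 without sgRNA2 KO replicate 2 and 20 without sgRNA1 KO replicate 3. The KO libraries with the largest proliferation sums, replicate 3 of sgRNA1 KO and replicate 1 of sgRNA2 KO, had the smallest mean ratio of the 10 genes.

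Of 10 oligodendrocyte lineage markers, 4 rose and 1 fell. Their median log2 fold change was 1.42, above the 0.54 of the other astrocyte markers. The list's mean log2 ratio to controls was lowest in sgRNA1 KO replicate 3 (0.29) and highest in sgRNA1 KO replicate 1 (2.03), as for the 10 genes. Sums were 96892 to 125411 in KO and 75631 to 86861 in control libraries. They were mostly Olig1, which did not pass the test (0.21, SE 0.13, limma adjusted p = 0.207), so they hide this rise. Gpr17 at 3.48 (SE 0.71, limma adjusted p = 0.00595) and Pdgfra at 2.20 (SE 0.57, adjusted p = 0.0147) were up, and Cldn11 at -2.02 (SE 0.32, adjusted p = 0.00229) was down. Of 15 neural stem and radial glia markers, 3 rose, including Sox2 at 0.94 (SE 0.21, adjusted p = 0.00851) and Egfr at 0.83 (SE 0.23, adjusted p = 0.0201), and 2 fell, Nes at -1.36 (SE 0.29, adjusted p = 0.00683) and Nr2e1 at -0.62 (SE 0.14, adjusted p = 0.00803). The shares of the stem and radial glia markers are near the background, and 4 of them fell without sgRNA2 KO replicate 3. The share of risen oligodendrocyte lineage markers, 4 of 10, is above the 19.1% of all genes. Of 11 neuron markers, Map2 rose at 0.85 (SE 0.30, adjusted p = 0.0478) and Gap43 fell by 3.51 (SE 0.52, adjusted p = 0.00168). Calls were lost for Pdgfra without control replicate 2 or 3, for Egfr without any 1 of the controls, and for Map2 without any 1 of the controls, sgRNA1 KO replicate 1 or 2, or sgRNA2 KO replicate 2 (adjusted p up to 0.0639, 0.0755 and 0.132). Markers of microglia, endothelium, pericytes and ependyma were low. Microglia sums were 1441 to 2872 in KO and 824 to 902 in control libraries, with the defining genes Aif1 (0 to 7 in KO and 2 to 6 in control libraries) and Csf1r (0 to 5 and 9 to 10) near 0. Sums were 162 to 345 in KO and 645 to 695 in control libraries for endothelial, 49 to 391 and 2235 to 2390 for pericyte and fibroblast, and 2172 to 3853 and 5313 to 5630 for ependymal markers. Of the tested genes, 2 of 6 endothelial, 2 of 3 pericyte and 7 of 8 ependymal markers fell, and 1 ependymal marker rose. The ependymal count was 1, 1 and 3 without control replicates 1, 2 and 3, with none higher, and the endothelial count was 1 without sgRNA1 KO replicate 1, sgRNA2 KO replicate 2 or any 1 of the controls. Flt1 was at -3.62 and Kdr at -1.46 among the endothelial markers, Rgs5 at -4.26 and Acta2 at -3.90 among those of pericytes and fibroblasts, and Rsph1 at -1.38, Tm4sf1 at -1.29 and Cfap126 at 0.997 among the ependymal ones (log2 fold changes). Tm4sf1 is also in the list of reactive astrocyte genes, so it counts as fallen in both lists and is not particular to ependyma. The microglia marker Cd68 was at -0.72, and the proliferation genes Ccne2 and Rrm2 at -2.65 and -2.33.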

How the data were processed

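The submitters' processing notes name STAR 2.4.1d, featureCounts, DESeq2 and build mm10. The annotation and strand setting are not given in the sources used here. The deposited values are treated as a score: from the values and the tools named, they were inferred to be read counts scaled by 1 factor per library and rounded, so no count test was run. Gene positions and exon lengths came from GENCODE M21 (21817 of 21899 IDs matched), promoters from RefSeq GRCm38.p6. Values were taken as log2(value + 1), which understates the change of low genes. Genes with a mean of at least 10 (15827) were tested in R 4.3.3 by limma 3.58.1 with its trend option, two-sided and Benjamini-Hochberg adjusted, KO against control in a fit of 2 groups and the other comparisons in a fit of 3 groups. Both guide comparisons share the control libraries. The genes and the 14 lists were chosen with earlier results of these data known. From each list, up to 2 risen and 2 fallen genes with the largest change were named, where the higher group averaged 50 or more. The fit was tested on simulated data with the same spread in every library, so that check does not cover the unequal spread of KO and control libraries. Some list genes are not reported here. Alternatives were pseudocounts of 0.5 and 5, no filter, a mean filter of 50, variance weights, median-of-ratios rescaling, quantile normalization, fits of the 6 compared libraries alone, a replicate block, and libraries left out. Replicate numbers are in the labels, but same-numbered libraries did not deviate together. Tables and figures used Python 3.11.15, numpy 2.4.6, pandas 2.3.3 and matplotlib 3.10.9.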

Additional observations from a re-analysis of the deposited data

How the results depend on the processing

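Glul, Slc1a2 and S100b kept their call in KO against control in all 18 alternatives, with log2 fold changes of 2.11 to 2.53, 2.34 to 2.80 and 4.03 to 4.68. Leaving out libraries (each of 9 in turn, and both sgRNA1 KO replicate 3 and sgRNA2 KO replicate 1) moved the number of all genes called to 2759 to 7674 for KO, 1252 to 8191 for sgRNA1 KO and 612 to 6268 for sgRNA2 KO, each against control, and to 0 to 173 between guides. Of the 10 genes, 0 to 1 were then called lower for KO, 3 to 7 higher for sgRNA1 KO, 0 to 2 lower for sgRNA2 KO, and 0 to 4 higher for sgRNA1 KO against sgRNA2 KO. Without both of those libraries, 7 of the 10 genes were higher for sgRNA1 KO, 2 lower for sgRNA2 KO (6268 genes called) and 3 higher between guides (30 genes called). Leaving out a library because it is low for these genes is a description and no support for a call. Variance weights called 1 of the 10 genes lower for KO (Clu), and using only the 6 libraries compared called 2 lower for sgRNA2 KO (Clu and Gfap).

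Signs turned for genes that had not passed the test. With libraries left out, KO against control ran from -0.14 to 0.05 for Slc1a3, -1.23 to 0.44 for Gfap and -0.24 to 0.66 for Aldh1l1. For sgRNA1 KO against control the ranges were -0.020 to 0.20 for Slc1a3, -0.65 to 2.34 for Gfap, -1.78 to 0.23 for Aldh1l1 and -1.16 to 0.13 for Clu. For sgRNA2 KO against control they were -0.26 to 0.041 for Gja1 and -0.068 to 0.0057 for Slc4a4, which was 0.028 with quantile normalization, and for Glul between guides -0.38 to 0.36. The cause was not tested.

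The replicate numbers only name the libraries. With the replicate block, 5786 genes were called for KO, 5241 for sgRNA1 KO and 2632 for sgRNA2 KO, each against control, and 0 between guides. Of the 10 genes, 4 were then higher for KO (Aqp4 added, adjusted p = 0.0317, limma) and 5 for sgRNA1 KO (Slc4a4 added, adjusted p = 0.0488), and 3 were higher and 1 lower for sgRNA2 KO. Raw counts were not used here, so no interval for counting error is given.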

Other observations

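Among 11575 genes outside the set with a mean of at least 50, leaving out symbols of predicted genes, clones, pseudogenes and small RNAs, the 5 whose log2 values over the 6 KO libraries ran most nearly with the mean log2 ratio of the 10 astrocyte and glutamate genes were Bnip3 (Pearson r = 0.998), Capn1 (0.992), Glis1 (0.991), Cap1 (0.991) and Pdlim5 (0.991). Bnip3, a mitophagy receptor gene, had normalized read counts of 202, 169 and 92 in sgRNA1 KO, 107, 129 and 123 in sgRNA2 KO, and 126, 121 and 95 in control libraries. Capn1, a calpain protease gene, had 550, 218 and 36 in sgRNA1 KO, 40, 83 and 88 in sgRNA2 KO, and 36, 30 and 39 in control libraries. The KO libraries of both genes overlapped the controls, and with 6 points these values are a description without a test.

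Slc6a11 and Aldh5a1, genes of GABA uptake and breakdown picked here after their values were seen, were higher in KO than in control libraries. Slc6a11, the astrocytic GABA transporter 3 gene, had normalized read counts of 35820, 43551 and 17621 in sgRNA1 KO, 15810, 22040 and 39484 in sgRNA2 KO, and 10038, 8190 and 8195 in control libraries (log2 fold change 1.62, SE 0.33, limma adjusted p = 0.00585). Aldh5a1, which encodes the succinate semialdehyde dehydrogenase that follows Abat in GABA breakdown, had a log2 fold change of 0.91 (SE 0.23, adjusted p = 0.0133), a call lost without control replicate 2 or 3 (adjusted p up to 0.0588).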
